A study of Rattus norvegicus with 15 samples.

Results

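The Wnt pathway genes described here were chosen by symbol: the Wnt ligands and R-spondins, the genes that process them, their receptors and co-receptors, the secreted inhibitors, the cytoplasmic and nuclear components, and the planar cell polarity genes. The rule matched 55 genes among the 8621 genes in 3 expression tables of rat adrenal medullary tissue, and 42 of the 55 had counts in all 15 samples. Of the 55 members, 13 were in 1 table, 29 in 2 tables and 13 in all 3 tables. The rule reads symbols and no measured value, but it was set with earlier results of these data known. In addition, a gene is in a table only where the authors' own test of 2 groups gave it an adjusted p under 0.05. Genes outside those tables, among them *Ctnnb1* (β-catenin) and *Wnt4*, were not analysed here.

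RNA-seq was performed on 3 groups of 5 rats, all labelled as strain Sprague-Dawely. WT rats were wildtype and 7 to 9.5 months old. HYP samples were hyperplastic adrenal medullas of MENX rats of 4 to 5 months, and PCC samples were pheochromocytomas, tumours of the catecholamine-making chromaffin cells, of MENX rats of 7 to 9.5 months. By the study's account the PCC group holds both PCC and advanced PCC, and since the labels do not say which sample is which, no split was made. Both MENX groups carry an inherited frameshift mutation of *Cdkn1b*, which encodes the cell cycle inhibitor p27, in all tissues. Between HYP and WT rats, age and genotype cannot be told apart, and between PCC and HYP rats neither can age and stage. Between PCC and WT rats, genotype and the presence of a tumour cannot be told apart. The tissue was macrodissected to remove the adrenal cortex, so each sample, taken from a separate animal, is a piece of tissue and not sorted chromaffin cells. The labels name chromaffin cells, and markers of both the cortex and the chromaffin cells were read in all 15 samples.

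Wnt ligands are secreted lipid-modified proteins that bind Frizzled receptors and the co-receptors *Lrp5* and *Lrp6*. In the canonical branch this binding stops the breakdown of β-catenin by a complex built on Axin and Apc, and β-catenin then activates genes with *Lef1* and the Tcf7 family, several of which, such as *Axin2* and *Notum*, dampen the signal. Other branches run without β-catenin and set cell polarity and movement. In the adrenal gland the pathway is known best from the outer zone of the cortex, and a Wnt-altered class is recognised among human pheochromocytomas and paragangliomas.

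Levels are given as CPM (the reads of a gene relative to the size of its library, on 1 common scale for the 15 samples), in the order of replicates 1 to 5 of a group. The size is the sum of reads on the 5492 genes with counts in all 15 samples, times a scaling factor (TMM, from edgeR). It is therefore not the total of all reads of the library. Between 16315018 and 23831269 reads per sample were counted on genes. Log2 fold changes, their standard errors (SE) and Benjamini-Hochberg adjusted p-values (BH-adjusted p) are from edgeR's quasi-likelihood test within each comparison, and a gene was called when its adjusted p was under 0.05.

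Several sums of cell type markers moved with the groups, but only markers with counts in all 15 samples were summed. Markers that the authors' tests did not call are absent, so the sums do not show how the full lists moved. The summed level of 9 of 16 adrenal cortex markers, among them the steroidogenic genes *Star* and *Cyp21a1*, was 27924 to 55579 CPM in WT, 12440 to 33395 CPM in HYP and 888 to 14512 CPM in PCC. The lowest cortex sums were those of PCC replicate 4 (888 CPM) and PCC replicate 2 (2899 CPM). The sum of 8 of 14 chromaffin markers, such as *Th* and *Dbh* of catecholamine synthesis, ran the other way, at 1673 to 7882 CPM in WT, 8446 to 12930 CPM in HYP and 14576 to 27878 CPM in PCC, with WT replicate 5 the lowest. None of these markers was at 0 in every sample of a group. The sum of 9 of 12 cell cycle genes was 102 to 153 CPM in WT, 135 to 170 CPM in HYP and 184 to 386 CPM in PCC. Endothelial markers (5 of 10) summed to 424 to 551, 278 to 390 and 185 to 327 CPM in WT, HYP and PCC, and fibroblast and capsule markers (4 of 10) to 31.3 to 60.4, 90.6 to 124 and 58.4 to 178 CPM. Schwann and sustentacular markers (7 of 10) overlapped between the groups at 58.3 to 115, 81.3 to 123 and 59.2 to 109 CPM, the T cell marker *Cd8a* was at 0.925 to 4.43, 1.87 to 2.58 and 0.473 to 1.40 CPM, and the 10 leukocyte markers were not analysed here. In tissue pieces, fewer cells of a type and less RNA per cell cannot be told apart, and the part of these shifts in the values below was not tested.

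In PCC vs. WT, members of the pathway were called in both directions. The 6 largest increases were those of *Wnt10a*, *Wnt9a*, *Notum*, *Dkk2*, *Vangl2* and *Fzd5*, and the 6 largest decreases those of *Fzd4*, *Wnt2*, *Lgr4*, *Lrp5*, *Wif1* and *Lrp6*, so ligands, receptors and inhibitors were found on both sides. Of 47 listed members, 44 passed the low-count filter, and 36 of these were called, 23 higher and 13 lower in PCC. That is 81.8% of the members tested, against 85.2% of the 7001 genes tested (46.7% higher and 38.5% lower), so the share of members called was near the background. The values of the groups did not overlap for 28 of the 44 members, against 64.7% of all genes tested. The median log2 fold change of the members was 1.03, against 0.44 for all genes tested.

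In HYP vs. WT, 28 of 33 listed members passed the filter, and 17 were called, 8 higher and 9 lower in HYP (60.7%, against 72.1% of the 4108 genes tested, 39.5% higher and 32.5% lower). Groups did not overlap for 12 of the 28 members, against 54.8% of all genes tested, and the median log2 fold change was -0.60 for the members and -0.37 for all genes. The number of members called higher dropped from 8 to 5 without WT replicate 1, WT replicate 3, HYP replicate 2 or HYP replicate 4, and to 4 without WT replicate 4 or HYP replicate 5. The number called lower dropped from 9 to 5 without WT replicate 3.

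In PCC vs. HYP, 27 of 30 listed members passed the filter, and 16 were called, 11 higher and 5 lower in PCC (59.3%, against 44.4% of the 3148 genes tested, 21.8% higher and 22.6% lower). Groups did not overlap for 15 of the 27 members, against 54.3% of all genes tested, and the median log2 fold change was 0.76 for the members and 0.43 for all genes. Of the 11 members called higher, 7 were called without PCC replicate 3 or PCC replicate 4, 5 without HYP replicate 5, 4 without HYP replicate 4 and 3 without HYP replicate 3. Of the 5 called lower, 3 were called without HYP replicate 2 and 2 without HYP replicate 3 or HYP replicate 4.

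Folds are relative to the scaling chosen. Dividing by the summed listed counts of each sample moved the median of all genes by 0.50 in PCC vs. WT, 0.46 in HYP vs. WT and 0.15 in PCC vs. HYP, and scaling to the recovered library totals moved it by 0.29, 0.19 and 0.22. DESeq2's size factors moved it by -0.17 in PCC vs. HYP, and the authors' size factors moved it by 0.11 there. Among the members called, 63.9% were higher in PCC vs. WT, against 75.8% and 71.4% with the 2 totals and 52.2% with DESeq2. Among all genes called, the shares under the same 4 settings were 54.8%, 76.3%, 68.9% and 49.2%. For HYP vs. WT the share of members was 47.1%, against 80% with either total and 35.3% with the authors' size factors, where all genes gave 54.8%, 89.3% and 75.8% with the totals and 48.6%. For PCC vs. HYP it was 68.8%, against 80% with the summed listed counts and 54.2% with DESeq2, where all genes gave 49.2%, 68.5% and 37.4%. The share among all genes called thus moved with the scaling as well. In 1 fit of all 15 samples over 5268 genes, 98% of genes were called in PCC vs. WT, 66% in HYP vs. WT and 55.4% in PCC vs. HYP, with 22 members higher and 16 lower, 12 higher and 10 lower, and 16 higher and 9 lower in that order. That fit adjusted p over those 5268 genes alone, so its counts cannot be set directly against the others. Of the 37 members named with the value of every sample, none that passed the low-count filter changed the sign of its fold change under any alternative. *Wnt1*, *Wnt7a*, *Wnt7b* and *Wnt10b* did not pass it and were not checked.

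**Figure D1:**
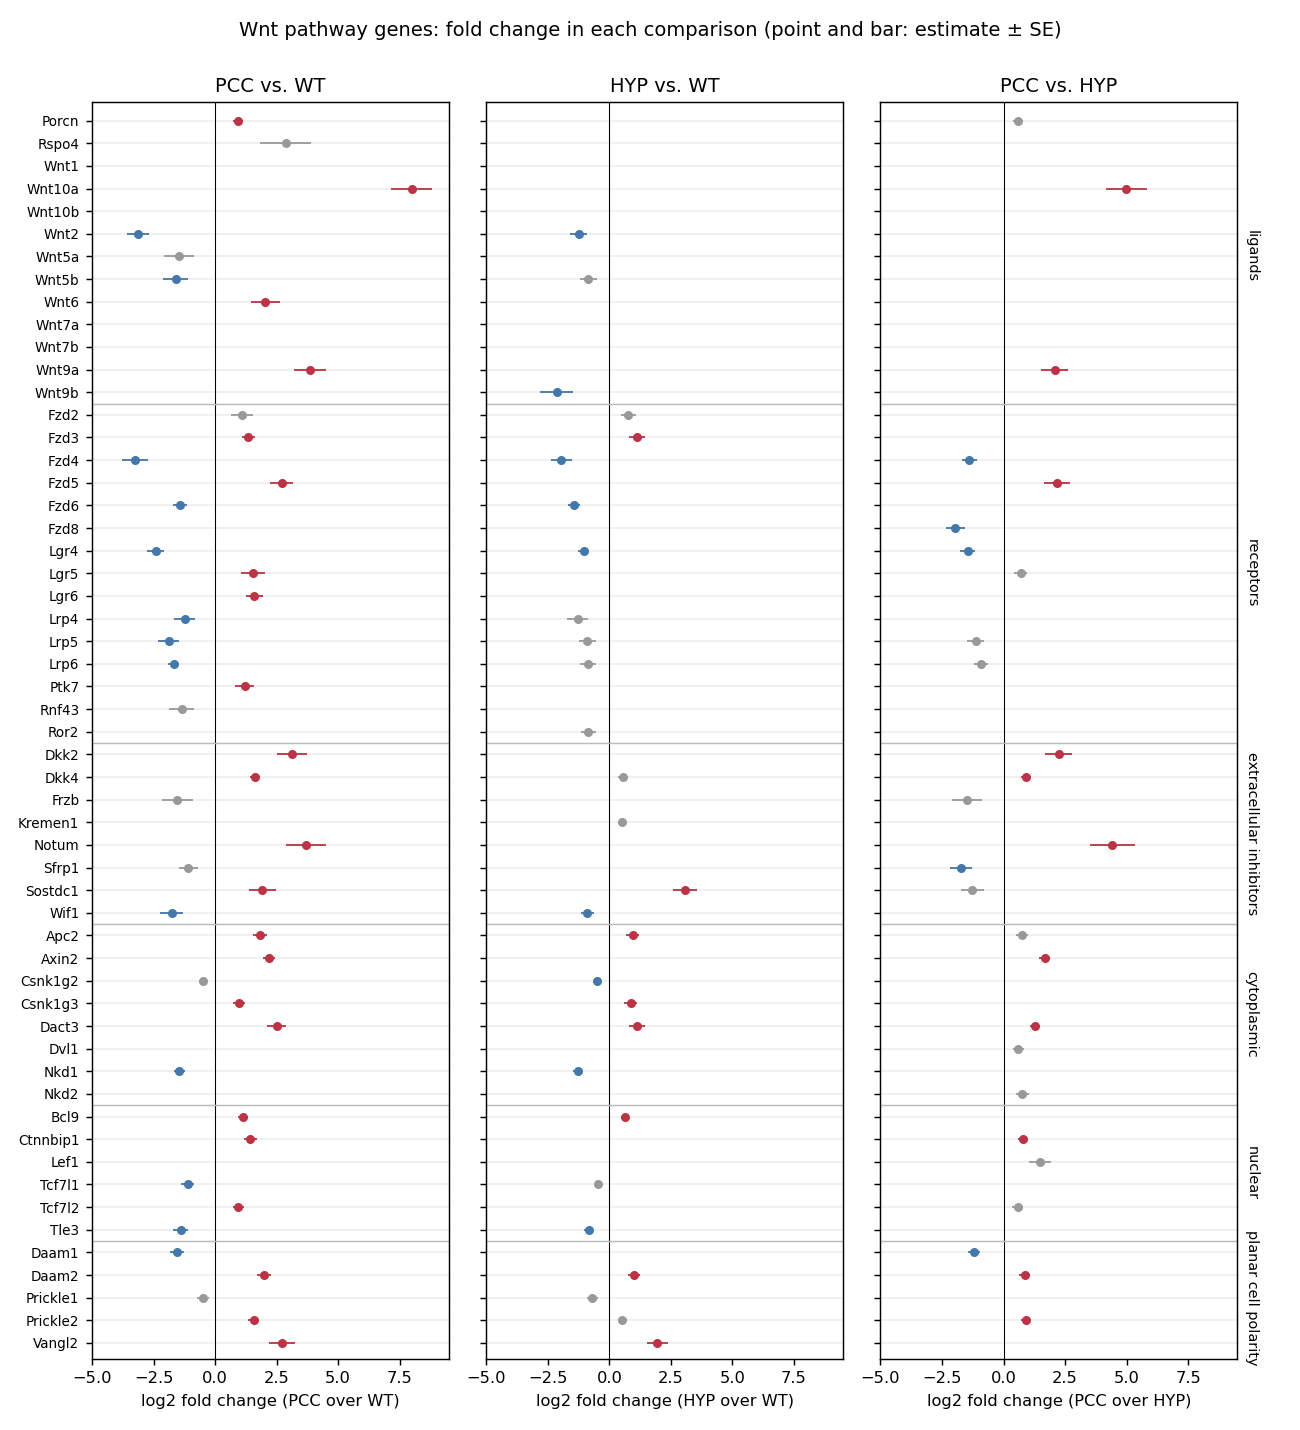
Log2 fold change (point) and standard error (bar) of the 55 Wnt pathway genes in the 3 comparisons, ordered by role, with members called higher in red, called lower in blue and tested but not called in grey, and no point where a member was not listed or was removed by the low-count filter. *Wnt10a* lies farthest to the right at 7.99 in PCC vs. WT, and *Fzd4* farthest to the left at -3.25.

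Among the ligands, *Wnt10a* and its neighbour *Wnt6*, together with *Wnt9a*, were higher in PCC than in WT, and *Wnt2* and *Wnt5b* were lower. Of 11 ligand genes listed in PCC vs. WT, among them the processing enzyme *Porcn*, 8 were tested, with 4 called higher (*Wnt10a*, *Wnt9a*, *Wnt6* and *Porcn*) and 2 called lower. In HYP vs. WT, 3 were tested and 2 of them (*Wnt9b* and *Wnt2*) were lower, and in PCC vs. HYP, 3 were tested and 2 (*Wnt10a* and *Wnt9a*) were higher. Of all genes tested, 46.7% were called higher and 38.5% lower in PCC vs. WT. The shares were 39.5% and 32.5% in HYP vs. WT, and 21.8% and 22.6% in PCC vs. HYP. *Wnt10a* (ENSRNOG00000052510, chromosome 9 from 82053581 to 82066047, plus strand, Rn06), a ligand of the canonical branch, was at 0.0962, 0.201, 0.0528, 0.125 and 0 CPM in WT. It was at 1.58, 0.274, 0, 0.813 and 1.30 CPM in HYP. In PCC it was at 32.0, 5.63, 33.2, 58.9 and 8.98 CPM. Every PCC sample lay above every HYP and WT sample, while the WT libraries held only 2, 4, 1, 2 and 0 reads of the gene. The log2 fold change was 7.99 (SE 0.84, edgeR BH-adjusted p = 0.000129) in PCC vs. WT and 4.99 (SE 0.84, edgeR BH-adjusted p = 0.00702) in PCC vs. HYP. The reads of the 5 PCC samples against those of the 5 WT samples gave a rate ratio of 274 (144 to 600.3), with an interval that covers counting error only. The filter on low counts removed the gene in HYP vs. WT. A fit without that filter gave 2.86 (SE 0.86, edgeR BH-adjusted p = 0.0378), and HYP replicate 3 had 0 reads.

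*Wnt9a* (ENSRNOG00000003066, chromosome 10 from 45659143 to 45681393, plus strand) is another ligand of this branch. Its level was 0.0481, 0.453, 0.211, 0.313 and 0.142 CPM in WT, 0.380, 1.37, 0.451, 0.929 and 0.699 CPM in HYP and 0.775, 3.06, 5.10, 6.53 and 2.41 CPM in PCC. All PCC samples were above all WT samples, and PCC replicate 1 lay within the range of HYP. By edgeR the log2 fold change was 3.86 (SE 0.65, edgeR BH-adjusted p = 0.00126) in PCC vs. WT. In PCC vs. HYP it was 2.08 (SE 0.54, edgeR BH-adjusted p = 0.0367), a call lost in 7 of the 10 fits that left out 1 sample, with the highest adjusted p (0.107) without HYP replicate 3. The fit without the low-count filter gave 1.63 (SE 0.53, edgeR BH-adjusted p = 0.0495) in HYP vs. WT.

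*Wnt6* (ENSRNOG00000017409, chromosome 9 from 82033543 to 82047166, plus strand) lies 6414 bases from *Wnt10a* on chromosome 9. It was listed only in PCC vs. WT, with 0.240, 0.403, 0.317, 0.501 and 0 CPM in WT and 0.683, 0.874, 0.936, 2.51 and 1.42 CPM in PCC. These were 5, 8, 6, 8 and 0 reads in WT and 15, 18, 20, 53 and 33 reads in PCC, with no overlap between the groups. In log2 terms the fold change was 2.05 (SE 0.60, edgeR BH-adjusted p = 0.0217), a call lost without WT replicate 1, WT replicate 3 or PCC replicate 4 (highest adjusted p 0.0547) and also without PCC replicates 2 and 4 together. *Porcn*, the membrane enzyme that attaches the lipid to Wnt ligands, was at 9.45 ± 1.03 CPM (SD, n = 5) in WT, 11.4 ± 2.67 CPM in HYP and 18.5 ± 3.01 CPM in PCC, and its log2 fold change in PCC vs. WT was 0.94 (SE 0.19, edgeR BH-adjusted p = 0.00379).

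*Wnt2* (ENSRNOG00000051905, chromosome 4 from 45292437 to 45332420, minus strand), a canonical ligand, was lower in both MENX groups. It was at 2.36, 1.66, 1.48, 1.31 and 0.853 CPM in WT, 0.317, 0.604, 0.645, 0.813 and 0.948 CPM in HYP and 0.137, 0.0485, 0.234, 0.189 and 0.258 CPM in PCC. WT and PCC did not overlap, nor did HYP and PCC, whereas HYP replicate 5 lay above WT replicate 5. This was a log2 fold change of -3.15 (SE 0.45, edgeR BH-adjusted p = 0.000528) in PCC vs. WT and -1.25 (SE 0.34, edgeR BH-adjusted p = 0.0274) in HYP vs. WT. The HYP vs. WT call was lost in 5 of the 10 fits that left out 1 sample (highest adjusted p 0.0710, without WT replicate 1), and with scaling to either total. Without the low-count filter the value in PCC vs. HYP was -2.03 (SE 0.49, edgeR BH-adjusted p = 0.0291).

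*Wnt5a* and *Wnt5b* are the ligands best known for branches without β-catenin. *Wnt5b* (ENSRNOG00000008168, chromosome 4 from 151500957 to 151516894, minus strand) was at 6.11, 6.95, 6.59, 2.44 and 4.62 CPM in WT, 5.07, 2.69, 1.81, 3.43 and 2.45 CPM in HYP and 1.59, 0.728, 2.53, 0.520 and 3.69 CPM in PCC. The ranges of all 3 groups overlapped. Its log2 fold change was -1.60 (SE 0.51, edgeR BH-adjusted p = 0.0330) in PCC vs. WT, and this call was lost in 6 of the 10 fits without 1 sample (highest adjusted p 0.0728, without PCC replicate 2) and with scaling to either total. It was -0.85 (SE 0.33, edgeR BH-adjusted p = 0.115) in HYP vs. WT, which passed the threshold only without WT replicate 4 or HYP replicate 1 among the fits without 1 sample (lowest adjusted p 0.0423). *Wnt5a*, listed only in PCC vs. WT, was at 26.4, 24.3, 56.7, 42.8 and 142 CPM in WT and 29.4, 7.28, 27.2, 5.01 and 35.6 CPM in PCC. WT replicate 5, the sample with the lowest chromaffin marker sum, stood far above the other WT samples. edgeR gave a log2 fold change of -1.47 (SE 0.59, edgeR BH-adjusted p = 0.0847), and without WT replicate 5 the adjusted p was 0.292.

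*Wnt1*, *Wnt10b* and *Wnt7a* were scarce and read mostly in WT. *Wnt1*, a founding canonical ligand, had 31, 30, 15, 13 and 0 reads in WT, 0, 0, 0, 2 and 1 in HYP and 0, 0, 0, 1 and 0 in PCC. WT replicate 5 held no read either, so the groups overlapped. The reads were 108 (18.8 to 4296) times as frequent in WT as in PCC, and 28.7 (9.51 to 142) times as frequent as in HYP. *Wnt10b*, which lies 10730 bases from *Wnt1* on chromosome 7, had 5, 5, 5, 4 and 3 reads in WT, 0, 0, 0, 2 and 1 in HYP and 1, 0, 0, 1 and 2 in PCC. Its WT samples all lay above the samples of both MENX groups, with a rate ratio of WT over PCC of 6.65 (2.26 to 26.5) and of WT over HYP of 7.10 (2.13 to 37.0). In the RefSeq annotation of GRCr8, *Wnt1* and *Wnt10b* lie inside a *Tuba1c* gene model and *Wnt5b* overlaps *Fbxl14*. Reads were counted on Rn06, where these overlaps were not examined, so the counts would be uncertain if exons coincide there. *Wnt7a* had 2, 15, 1, 11 and 3 reads in WT, 0, 0, 1, 1 and 0 in HYP and 1, 2, 0, 0 and 0 in PCC, with rate ratios of WT over PCC of 12.9 (4.03 to 65.8) and of WT over HYP of 15.5 (3.95 to 133). WT replicates 1 and 3 lay within the range of the MENX groups. The filter on low counts removed these 3 genes. Without it their log2 fold changes in PCC vs. WT were -5.96 (SE 1.12, edgeR BH-adjusted p = 0.00205) for *Wnt1*, -2.57 (SE 0.65, edgeR BH-adjusted p = 0.00964) for *Wnt10b* and -3.45 (SE 1.01, edgeR BH-adjusted p = 0.0201) for *Wnt7a*. With so few reads these fitted values depend on the prior count and set no bound.

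*Wnt9b* was listed only in HYP vs. WT, with 1.20, 1.46, 0.844, 3.69 and 0.427 CPM in WT and 0.507, 0, 0.580, 0.465 and 0.250 CPM in HYP. WT replicate 4 was the highest, and WT replicate 5 lay within the range of HYP. The call (log2 fold change -2.14, SE 0.66, edgeR BH-adjusted p = 0.0446) was lost in 9 of the 10 fits without 1 sample (highest adjusted p 0.128, without WT replicate 4, where the log2 fold change was -1.55) and with scaling to either total. *Wnt7b*, listed only in PCC vs. HYP, had 6, 3, 5, 13 and 12 reads in HYP and 0, 1, 2, 0 and 5 in PCC, a rate ratio of HYP over PCC of 6.09 (2.80 to 15.1). *Rspo4*, an R-spondin that strengthens Wnt signalling through the Lgr receptors, was at 0.0962, 0.201, 0, 0.0626 and 0.925 CPM in WT, 0.380, 0, 0.322, 0.174 and 0.150 CPM in HYP and 0.911, 0.291, 0.842, 6.20 and 0.644 CPM in PCC. Apart from PCC replicate 4 the groups overlapped, and the log2 fold change in PCC vs. WT was 2.87 (SE 1.03, edgeR BH-adjusted p = 0.0533). Over the fits without 1 sample the adjusted p ran from 0.0158 without WT replicate 5 to 0.249 without PCC replicate 4.

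Levels of different genes can be set side by side only per gene length, and the authors' FPKM give this. Ligands that were not listed, among them *Wnt4*, have no values here and could rank anywhere. Among the listed ligands with values in WT, *Wnt5a* had the highest FPKM there (9.93 ± 6.68, SD, n = 5). It was followed by *Wnt5b* (2.17 ± 0.888) and *Wnt2* (1.08 ± 0.469), and the next was *Wnt9b* (0.380 ± 0.309). Among those with values in PCC, *Wnt10a* led there with 12.2 ± 9.90 FPKM, followed by *Wnt9a* (6.64 ± 4.32), *Wnt5a* (4.47 ± 2.91) and *Rspo4* (2.88 ± 4.13). The spread of each of these 4 ligands in PCC overlapped that of the next. The order also depends on the gene lengths used, which were 609 bases for *Wnt9a* and 687 for *Rspo4*, against 4994 for *Wnt5a*. In reads, *Wnt9a* had 383 and *Wnt5a* 2312 over the 5 PCC samples. Whether these lengths cover the full transcripts was not tested.

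**Figure D2:**
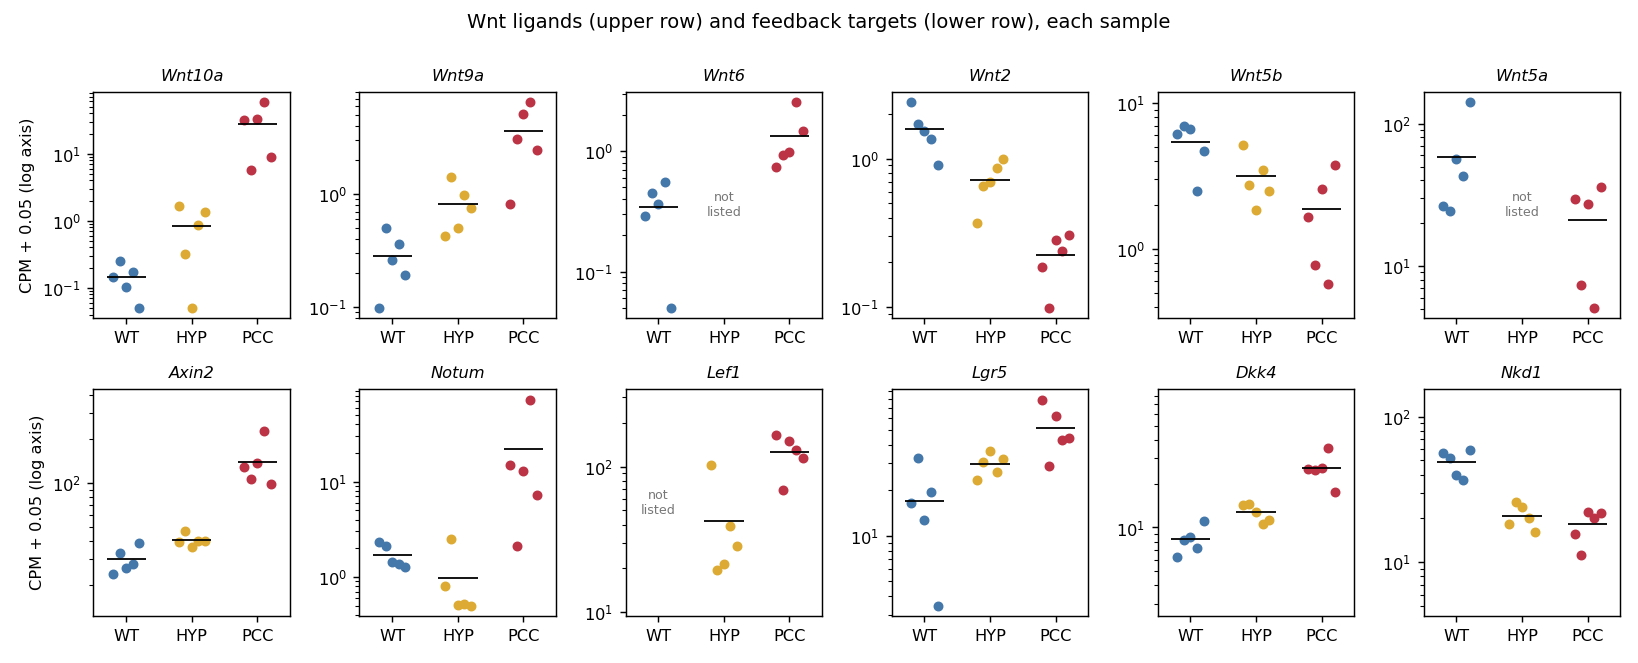
CPM plus 0.05 on a log axis for 6 Wnt ligands (upper row) and 6 feedback targets of the pathway (lower row), with 1 point per sample and a line at the group mean. *Wnt10a* is at most 0.201 CPM in the WT samples and between 5.63 and 58.9 CPM in the PCC samples, while *Nkd1* is between 36.4 and 58.7 CPM in WT and between 11.2 and 22.1 CPM in PCC.

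Receptors moved in both directions. Of 13 receptor genes tested in PCC vs. WT, 5 were called higher (*Fzd5*, *Lgr6*, *Lgr5*, *Fzd3* and *Ptk7*) and 6 lower (*Fzd4*, *Lgr4*, *Lrp5*, *Lrp6*, *Fzd6* and *Lrp4*). HYP vs. WT had 1 of 9 higher and 3 lower, and in PCC vs. HYP 1 of 7 was higher and 3 were lower. Among all genes tested, 46.7% were called higher and 38.5% lower in PCC vs. WT. The shares were 39.5% and 32.5% in HYP vs. WT, and 21.8% and 22.6% in PCC vs. HYP. *Fzd5* (ENSRNOG00000014678, chromosome 9 from 71443588 to 71445739, minus strand) was at 6.68, 6.70, 9.39, 11.5 and 19.9 CPM in WT, 4.82, 7.68, 11.4, 26.2 and 21.6 CPM in HYP and 39.3, 53.2, 74.8, 154 and 30.8 CPM in PCC. The PCC samples lay above all others, and WT and HYP overlapped. The fitted log2 fold change was 2.70 (SE 0.46, edgeR BH-adjusted p = 0.00127) in PCC vs. WT and 2.17 (SE 0.52, edgeR BH-adjusted p = 0.0281) in PCC vs. HYP. The latter call was lost without PCC replicate 3, HYP replicate 2 or HYP replicate 3 (highest adjusted p 0.0855).

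*Fzd4* (ENSRNOG00000016848, chromosome 1 from 153589471 to 153598375, plus strand), a Frizzled that also serves as receptor of norrin in vessels, was called lower in each comparison. Its level was 241, 213, 91.9, 58.5 and 50.7 CPM in WT, 37.5, 47.5, 40.1, 26.5 and 25.5 CPM in HYP and 10.6, 9.56, 17.5, 9.60 and 25.2 CPM in PCC. No sample overlapped between any pair of groups, and WT replicates 1 and 2 were the highest. The log2 fold change was -3.25 (SE 0.53, edgeR BH-adjusted p = 0.000997) in PCC vs. WT, -1.94 (SE 0.43, edgeR BH-adjusted p = 0.00989) in HYP vs. WT and -1.38 (SE 0.31, edgeR BH-adjusted p = 0.0237) in PCC vs. HYP. These comparisons share samples pairwise. The PCC vs. HYP call was lost without PCC replicate 2, HYP replicate 2 or HYP replicate 3 (highest adjusted p 0.0645), and with scaling to the summed listed counts. The endothelial marker sum, 424 to 551 CPM in WT and 185 to 327 CPM in PCC, was also lower, but its members differed. Of 6 endothelial markers tested in PCC vs. WT, *Tek*, *Emcn* and *Kdr* were called lower, *Vwf* was called higher (log2 fold change 1.48) and *Flt1* and *Plvap* were not called. Their part in the values of *Fzd4* was not tested.

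*Fzd6* (ENSRNOG00000004660, chromosome 7 from 77899322 to 77931029, plus strand) was at 43.4, 26.8, 50.4, 54.2 and 61.1 CPM in WT, 25.5, 20.1, 19.5, 12.1 and 13.7 CPM in HYP and 19.5, 15.1, 18.2, 9.27 and 27.0 CPM in PCC. HYP lay wholly below WT, and PCC replicate 5 just above WT replicate 2. By edgeR the log2 fold change was -1.43 (SE 0.25, edgeR BH-adjusted p = 0.00344) in HYP vs. WT and -1.42 (SE 0.28, edgeR BH-adjusted p = 0.00267) in PCC vs. WT. *Fzd3*, which is known for axon guidance, was higher, with 4.49 ± 0.916 CPM (SD, n = 5) in WT, 10.1 ± 4.30 CPM in HYP and 11.8 ± 3.79 CPM in PCC. Its log2 fold change was 1.35 (SE 0.27, edgeR BH-adjusted p = 0.00310) in PCC vs. WT and 1.12 (SE 0.33, edgeR BH-adjusted p = 0.0357) in HYP vs. WT, where 7 of the 10 fits without 1 sample lost the call (highest adjusted p 0.0946, without HYP replicate 5). *Fzd8*, listed only in PCC vs. HYP, was at 1.39, 0.878, 1.61, 2.32 and 1.75 CPM in HYP and 0.364, 0.437, 0.655, 0.189 and 0.516 CPM in PCC without overlap, a log2 fold change of -1.95 (SE 0.39, edgeR BH-adjusted p = 0.0145). *Fzd2* did not pass the threshold, with a log2 fold change of 1.10 (SE 0.43, edgeR BH-adjusted p = 0.0788) in PCC vs. WT and 0.77 (SE 0.29, edgeR BH-adjusted p = 0.0958) in HYP vs. WT.

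The co-receptors *Lrp5* and *Lrp6*, which pair with Frizzled in the canonical branch, were both lower in PCC than in WT. *Lrp5* (ENSRNOG00000015911, chromosome 1 from 218816841 to 218920094, minus strand) was at 285, 282, 612, 532 and 1058 CPM in WT, 350.2, 196, 342, 386 and 266 CPM in HYP and 96.8, 67.0, 187, 126 and 269.5 CPM in PCC. PCC lay below WT throughout, and HYP overlapped both. In log2 terms the fold change was -1.89 (SE 0.43, edgeR BH-adjusted p = 0.00609) in PCC vs. WT. *Lrp6* (ENSRNOG00000006338, chromosome 4 from 168194927 to 168323751, minus strand) was at 103, 178, 211, 246 and 217 CPM in WT, 40.8, 96.3, 155, 129 and 117 CPM in HYP and 60.1, 52.7, 78.8, 54.3 and 56.8 CPM in PCC. Again PCC lay below WT throughout, with HYP replicate 1 below every PCC sample. This was a log2 fold change of -1.68 (SE 0.22, edgeR BH-adjusted p = 0.000337) in PCC vs. WT. Against HYP and between HYP and WT neither gene passed the threshold, with log2 fold changes of -1.14 (SE 0.35, edgeR BH-adjusted p = 0.0666) for *Lrp5* and -0.93 (SE 0.29, edgeR BH-adjusted p = 0.0728) for *Lrp6* in PCC vs. HYP, and -0.90 (SE 0.35, edgeR BH-adjusted p = 0.108) and -0.87 (SE 0.32, edgeR BH-adjusted p = 0.0891) in HYP vs. WT. Each of these 4 values passed it in 1 of the 10 fits without 1 sample, the lowest adjusted p being 0.0111 for *Lrp6* in PCC vs. HYP without HYP replicate 1. *Lrp4*, a related receptor that binds sclerostin and agrin, had a log2 fold change of -1.24 (SE 0.42, edgeR BH-adjusted p = 0.0429) in PCC vs. WT, lost in 8 of the 10 fits without 1 sample (highest adjusted p 0.128, without WT replicate 4).

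The 3 R-spondin receptors *Lgr4*, *Lgr5* and *Lgr6* did not move together. *Lgr4* (ENSRNOG00000005715, chromosome 3 from 101051955 to 101152119, plus strand) was at 169, 224, 163, 199.6 and 101 CPM in WT, 56.6, 92.7, 110.1, 89.6 and 82.9 CPM in HYP and 49.3, 20.6, 35.4, 16.7 and 44.2 CPM in PCC. PCC lay below both other groups, and HYP replicate 3 above WT replicate 5. edgeR gave a log2 fold change of -2.42 (SE 0.34, edgeR BH-adjusted p = 0.000475) in PCC vs. WT, -1.04 (SE 0.23, edgeR BH-adjusted p = 0.00932) in HYP vs. WT and -1.46 (SE 0.32, edgeR BH-adjusted p = 0.0197) in PCC vs. HYP. The HYP vs. WT call was lost with scaling to either total, and in PCC vs. HYP without HYP replicate 3 or HYP replicate 4 (highest adjusted p 0.0588). *Lgr5* (ENSRNOG00000004221, chromosome 7 from 58448277 to 58587787, minus strand), a stem cell marker of the gut and itself a Wnt target, was at 16.3, 32.8, 12.6, 19.4 and 3.41 CPM in WT, 23.4, 30.5, 36.3, 26.4 and 31.9 CPM in HYP and 79.2, 29.0, 61.5, 42.9 and 44.1 CPM in PCC. WT replicate 5 was the lowest, and WT replicate 2 lay above PCC replicate 2. The fitted log2 fold change was 1.53 (SE 0.49, edgeR BH-adjusted p = 0.0313) in PCC vs. WT, lost in 5 of the 10 fits without 1 sample (highest adjusted p 0.0772, without WT replicate 3), and 0.70 (SE 0.26, edgeR BH-adjusted p = 0.127) in PCC vs. HYP, which did not pass. *Lgr6* was low, with 0.754 ± 0.246 CPM in WT and 2.37 ± 0.597 CPM in PCC, and its log2 fold change was 1.59 (SE 0.33, edgeR BH-adjusted p = 0.00386).

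*Rnf43*, a ubiquitin ligase that removes Frizzled from the cell surface and is itself a Wnt target, was at 5.48, 2.67, 9.86, 5.13 and 8.96 CPM in WT and 1.91, 1.46, 2.99, 0.662 and 5.58 CPM in PCC. The groups overlapped, and the log2 fold change of -1.36 (SE 0.52, edgeR BH-adjusted p = 0.0685) did not pass the threshold, although it did without PCC replicate 5 (adjusted p 0.0128) and without WT replicate 2. *Ptk7*, a pseudokinase of the polarity branch, was at 4.05 ± 1.95 CPM (SD, n = 5) in WT and 9.74 ± 2.68 CPM in PCC, a log2 fold change of 1.20 (SE 0.38, edgeR BH-adjusted p = 0.0317). The call of *Ptk7* was lost in 5 of the 10 fits without 1 sample (highest adjusted p 0.0805, without WT replicate 4). *Ror2*, a receptor of WNT5A, had a log2 fold change of -0.85 (SE 0.29, edgeR BH-adjusted p = 0.0672) in HYP vs. WT and was not listed with PCC. Per gene length, *Lrp5* had the highest mean among the listed receptors with values in WT, at 94.9 ± 42.3 FPKM (SD, n = 5). *Lgr4* (45.6 ± 15.0) and *Lrp6* (33.8 ± 9.03) came next, and receptors that were not listed could not be ranked. Among the listed receptors with values in PCC, *Fzd5* (36.6 ± 26.8) and *Lrp5* (32.4 ± 18.0) were highest there, before *Lgr5* (17.6 ± 5.18), with spreads that overlapped from 1 gene to the next.

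The secreted inhibitors split as well. In PCC vs. WT, 4 of 7 tested were higher (*Notum*, *Dkk2*, *Sostdc1* and *Dkk4*) and 1 was lower (*Wif1*). There, 46.7% of all genes tested were called higher and 38.5% lower. *Dkk2* (ENSRNOG00000011360, chromosome 2 from 237148941 to 237241350, plus strand), a Dickkopf protein that binds LRP5 and LRP6, was at 0.337, 1.11, 0.897, 1.57 and 0.640 CPM in WT, 2.73, 1.32, 1.48, 1.74 and 0.699 CPM in HYP and 12.3, 5.34, 4.40, 16.6 and 2.15 CPM in PCC. PCC lay above WT, and HYP replicate 1 above PCC replicate 5. The log2 fold change was 3.13 (SE 0.60, edgeR BH-adjusted p = 0.00243) in PCC vs. WT and 2.25 (SE 0.55, edgeR BH-adjusted p = 0.0298) in PCC vs. HYP, the latter lost in 6 of the 10 fits without 1 sample (highest adjusted p 0.0873, without HYP replicate 3). *Dkk4* (ENSRNOG00000019267, chromosome 16 from 74260551 to 74264142, minus strand), a Dickkopf inhibitor known as a target of β-catenin, was at 6.25, 8.21, 8.49, 7.14 and 11.1 CPM in WT, 14.1, 14.5, 12.8, 10.6 and 11.2 CPM in HYP and 25.3, 24.8, 25.4, 34.8 and 17.5 CPM in PCC. PCC lay above HYP and WT in every sample. By edgeR the log2 fold change was 1.62 (SE 0.21, edgeR BH-adjusted p = 0.000392) in PCC vs. WT and 0.91 (SE 0.20, edgeR BH-adjusted p = 0.0201) in PCC vs. HYP, where the call was lost without HYP replicates 3, 4 or 5 (highest adjusted p 0.0688). HYP and WT differed by 0.57 (SE 0.19, edgeR BH-adjusted p = 0.0678), which passed the threshold without WT replicate 5 (adjusted p 0.0173).

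*Sostdc1* (ENSRNOG00000005770, chromosome 6 from 55812747 to 55817066, plus strand), an antagonist of both BMP and Wnt signalling, was highest in HYP. It was at 0.769, 1.96, 0.317, 0.939 and 0.498 CPM in WT, 5.83, 15.5, 8.83, 4.82 and 5.19 CPM in HYP and 1.82, 3.06, 6.18, 1.51 and 5.24 CPM in PCC. HYP lay above WT in every sample, and PCC overlapped both groups. In log2 terms the fold change was 3.08 (SE 0.49, edgeR BH-adjusted p = 0.00205) in HYP vs. WT, 1.92 (SE 0.56, edgeR BH-adjusted p = 0.0208) in PCC vs. WT and -1.27 (SE 0.46, edgeR BH-adjusted p = 0.121) in PCC vs. HYP, which did not pass the threshold. Without PCC replicate 3 the adjusted p in PCC vs. WT was 0.0541.

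*Sfrp1* and *Frzb* encode Frizzled-related decoys that bind Wnt ligands. *Sfrp1* (ENSRNOG00000017783, chromosome 16 from 73372007 to 73410777, minus strand) was at 19.7, 18.9, 17.5, 20.9 and 17.9 CPM in WT, 18.6, 45.5, 31.3, 25.8 and 22.9 CPM in HYP and 10.3, 4.13, 14.3, 2.93 and 14.5 CPM in PCC. PCC lay below both groups in every sample, lowest in replicates 2 and 4. This was a log2 fold change of -1.73 (SE 0.44, edgeR BH-adjusted p = 0.0360) in PCC vs. HYP, lost in 5 of the 10 fits without 1 sample (highest adjusted p 0.0869, without HYP replicate 3), and -1.09 (SE 0.40, edgeR BH-adjusted p = 0.0571) in PCC vs. WT, which passed the threshold only without PCC replicate 3 or PCC replicate 5 among the fits without 1 sample (lowest adjusted p 0.0340). Scaling to the summed listed counts also ended the call in PCC vs. HYP. *Frzb* had the highest FPKM of the members with values in each group, with means (± SD, n = 5) of 308 ± 106 in WT, 325 ± 37.8 in HYP and 128 ± 87.9 in PCC. It was at 570.1, 129, 452, 25.4 and 479.6 CPM in PCC, with PCC replicates 4 and 2, the samples with the lowest cortex marker sums, far below the rest. Its log2 fold change of -1.53 (SE 0.64, edgeR BH-adjusted p = 0.0945) in PCC vs. WT and -1.50 (SE 0.61, edgeR BH-adjusted p = 0.188) in PCC vs. HYP did not pass the threshold. *Kremen1*, a receptor of Dickkopf proteins, had a log2 fold change of 0.51 (SE 0.17, edgeR BH-adjusted p = 0.0580) in HYP vs. WT.

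**Figure D3:**
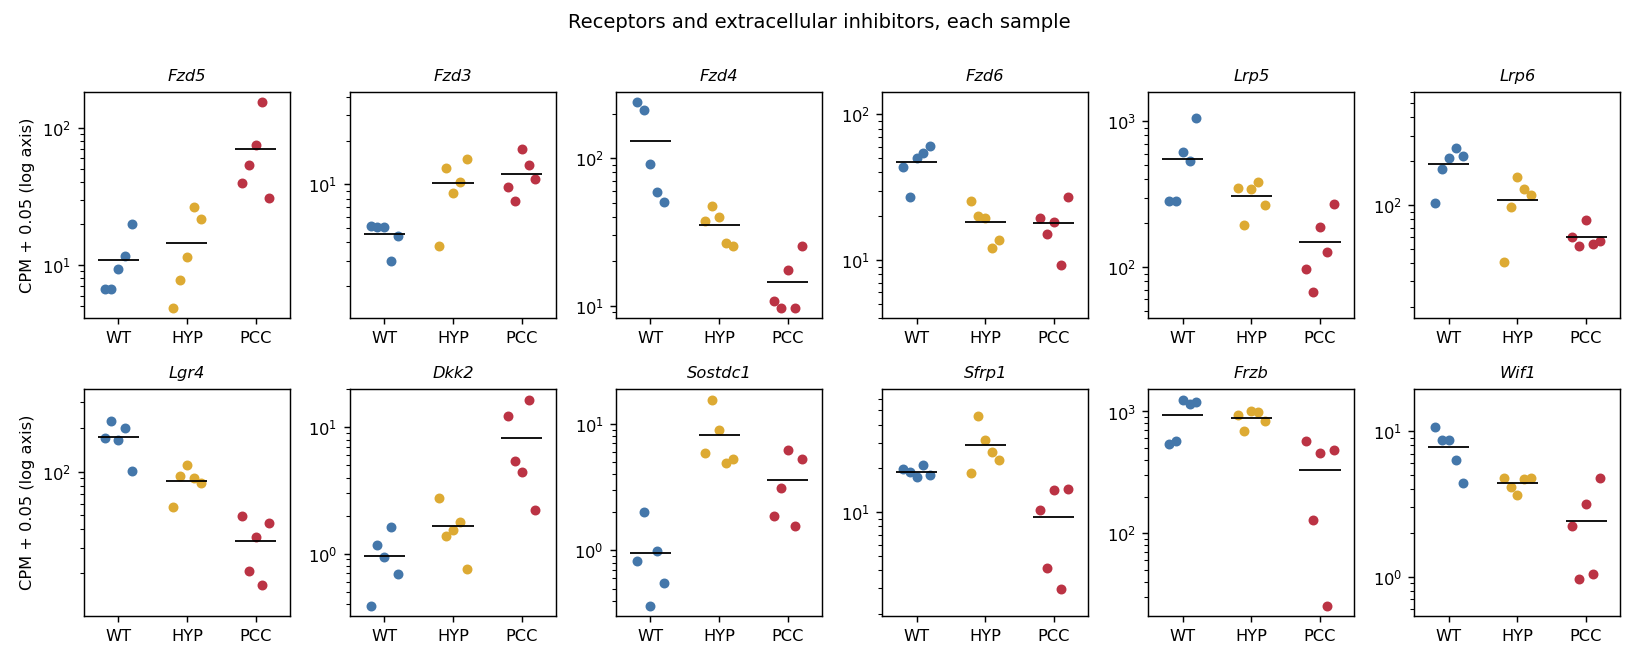
CPM plus 0.05 on a log axis for 7 receptors and 5 secreted inhibitors, with 1 point per sample and a line at the group mean. *Fzd5* and *Dkk2* are higher in PCC, with *Fzd5* between 30.8 and 154 CPM, *Lgr4* is between 16.7 and 49.3 CPM in PCC and between 101 and 224 CPM in WT, and *Sostdc1* is highest in HYP.

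The genes that β-catenin is known to induce as feedback also moved in both directions. Of the 7 feedback targets tested in PCC vs. WT, 4 were higher (*Notum*, *Axin2*, *Dkk4* and *Lgr5*), 2 were lower (*Wif1* and *Nkd1*) and *Rnf43* was not called. In HYP vs. WT, 2 of 3 were lower (*Nkd1* and *Wif1*), and in PCC vs. HYP, 3 of 5 were higher (*Notum*, *Axin2* and *Dkk4*). For all genes tested, 46.7% were called higher and 38.5% lower in PCC vs. WT. The shares were 39.5% and 32.5% in HYP vs. WT, and 21.8% and 22.6% in PCC vs. HYP. *Axin2* (ENSRNOG00000055010, chromosome 10 from 97212432 to 97239642, plus strand), the scaffold of the complex that breaks down β-catenin and the most widely used readout of the canonical branch, was at 23.7, 33.0, 26.1, 27.9 and 38.8 CPM in WT. It was at 39.4, 46.8, 36.4, 39.5 and 39.9 CPM in HYP and at 129, 107, 136, 226 and 97.6 CPM in PCC. Every PCC sample lay above every WT and HYP sample, and HYP replicate 3 below WT replicate 5. edgeR gave a log2 fold change of 2.20 (SE 0.24, edgeR BH-adjusted p = 0.000147) in PCC vs. WT and 1.67 (SE 0.22, edgeR BH-adjusted p = 0.00249) in PCC vs. HYP, and no sample left out changed either call.

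*Nkd1* (ENSRNOG00000014293, chromosome 19 from 19436333 to 19509087, minus strand), which binds Dishevelled and dampens Wnt signalling, moved opposite to *Axin2* in PCC vs. WT. Its level was 56.3, 51.9, 39.7, 36.4 and 58.7 CPM in WT, 18.3, 25.8, 24.0, 19.98 and 16.0 CPM in HYP and 15.7, 11.2, 22.1, 20.1 and 21.7 CPM in PCC. Both MENX groups lay below WT in every sample and overlapped each other. The fitted log2 fold change was -1.45 (SE 0.22, edgeR BH-adjusted p = 0.000667) in PCC vs. WT and -1.28 (SE 0.19, edgeR BH-adjusted p = 0.00149) in HYP vs. WT.

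Since *Axin2* and *Nkd1* went opposite ways, the 250 bases before the start of each gene are shown (RefSeq, build GRCr8), 5′ to 3′ on the strand of the gene, with matches to CTTTGA, the core of the motif bound by LEF1 and the Tcf7 family, in capitals. The region of *Axin2* is chr10:94398535-94398784 on the plus strand, and that of *Nkd1* is chr19:34722847-34723096 on the minus strand.
Axin2: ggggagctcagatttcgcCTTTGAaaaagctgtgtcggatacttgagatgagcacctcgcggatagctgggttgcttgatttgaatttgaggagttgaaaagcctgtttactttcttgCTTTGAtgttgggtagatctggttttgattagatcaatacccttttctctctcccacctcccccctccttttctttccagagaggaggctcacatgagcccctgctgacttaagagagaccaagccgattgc
Nkd1: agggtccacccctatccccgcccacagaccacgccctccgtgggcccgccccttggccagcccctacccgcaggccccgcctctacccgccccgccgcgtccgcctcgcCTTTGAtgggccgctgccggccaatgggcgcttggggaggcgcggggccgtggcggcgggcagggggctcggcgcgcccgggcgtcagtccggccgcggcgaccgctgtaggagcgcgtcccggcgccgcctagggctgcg
*Axin2* held 2 matches, which begin at positions -232 and -132 from the start, and *Nkd1* held 1 match at position -141. The GC content was 47.6% for *Axin2* and 80% for *Nkd1*. CTTTGA was searched on both strands (TCAAAG on the other strand) in 300 bases, 250 before and 50 after each start. Of 33469 RefSeq promoters 16.1% held it, and 3 of the 37 members matched to a promoter did (*Axin2*, *Nkd1* and *Prickle1*, 8.11%). A match says only that these letters are present.

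*Notum* (ENSRNOG00000036680, chromosome 10 from 109832981 to 109840047, minus strand), a secreted enzyme that strips the lipid from Wnt ligands, was at 2.26, 2.07, 1.37, 1.31 and 1.21 CPM in WT, 0.761, 2.47, 0.451, 0.465 and 0.449 CPM in HYP and 15.0, 2.09, 13.0, 73.0 and 7.13 CPM in PCC. PCC replicate 4 was far above all other samples, and PCC replicate 2 lay within the range of WT and HYP. The log2 fold change was 3.69 (SE 0.81, edgeR BH-adjusted p = 0.00519) in PCC vs. WT and 4.42 (SE 0.91, edgeR BH-adjusted p = 0.0169) in PCC vs. HYP. The PCC vs. HYP call was lost without HYP replicate 3 (adjusted p 0.0572) or HYP replicate 4. Without PCC replicate 4 both calls held, with log2 fold changes of 2.44 in PCC vs. WT and 3.23 in PCC vs. HYP, and over the fits without 1 sample they ran up to 3.99 and 5.22. *Wif1* (ENSRNOG00000004476, chromosome 7 from 63094911 to 63165159, plus strand), a secreted factor that binds Wnt ligands, was at 10.7, 8.66, 8.70, 6.32 and 4.34 CPM in WT, 4.69, 4.06, 3.61, 4.65 and 4.74 CPM in HYP and 2.19, 0.922, 3.09, 0.993 and 4.68 CPM in PCC. WT replicate 5 lay within the range of both MENX groups. By edgeR the log2 fold change was -1.76 (SE 0.46, edgeR BH-adjusted p = 0.0131) in PCC vs. WT and -0.89 (SE 0.25, edgeR BH-adjusted p = 0.0288) in HYP vs. WT. The latter was lost in 7 of the 10 fits without 1 sample (highest adjusted p 0.0712, without WT replicate 1). Both calls were lost with scaling to the summed listed counts, and that in HYP vs. WT also with the recovered library totals.

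*Lef1* (ENSRNOG00000010121, chromosome 2 from 236233239 to 236345056, plus strand), which carries β-catenin to its target genes, was listed only in PCC vs. HYP. It was at 102, 19.4, 21.3, 39.0 and 28.3 CPM in HYP and 164, 68.7, 149, 130.4 and 114 CPM in PCC. HYP replicate 1 lay within the range of PCC, and the other HYP samples lay below it. The log2 fold change of 1.48 (SE 0.44, edgeR BH-adjusted p = 0.0609) missed the threshold with all samples. It also missed it in 9 of the 10 fits without 1 sample (highest adjusted p 0.164, without HYP replicate 3) and without the low-count filter. The exception was the fit without HYP replicate 1, with an adjusted p of 0.00720. The value also passed with DESeq2 and with each of the other scalings. The pass with DESeq2 is no support, since the gene is listed only because the authors' DESeq2 test of the same counts called it.

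Of 6 cytoplasmic components tested in PCC vs. WT, 4 were higher (*Dact3*, *Axin2*, *Apc2* and *Csnk1g3*), *Nkd1* was lower and *Csnk1g2* was not called, where 46.7% of all genes tested were called higher and 38.5% lower. *Dact3* (ENSRNOG00000052256, chromosome 1 from 78800754 to 78812483, plus strand), a Dishevelled-binding antagonist, was called in each comparison. Its level was 5.29, 5.39, 3.01, 3.13 and 1.42 CPM in WT, 8.75, 9.00, 5.93, 8.54 and 9.13 CPM in HYP and 19.2, 16.1, 20.4, 31.4 and 20.8 CPM in PCC. The 3 groups did not overlap. In log2 terms the fold change was 2.50 (SE 0.37, edgeR BH-adjusted p = 0.000652) in PCC vs. WT, 1.11 (SE 0.32, edgeR BH-adjusted p = 0.0328) in HYP vs. WT and 1.28 (SE 0.22, edgeR BH-adjusted p = 0.00716) in PCC vs. HYP, comparisons that share samples. The HYP vs. WT call was lost without WT replicates 3 or 4 or HYP replicates 2 or 5 (highest adjusted p 0.0819), and with the authors' size factors. Chromaffin markers, at 1673 to 7882 CPM in WT and 14576 to 27878 CPM in PCC, moved the same way, and their part in the values of *Dact3* was not tested.

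*Apc2*, a relative of the tumour suppressor Apc found mainly in neurons, was at 30.1 ± 9.92 CPM (SD, n = 5) in WT, 60.5 ± 17.0 CPM in HYP and 110.1 ± 26.5 CPM in PCC. Its log2 fold change was 1.83 (SE 0.29, edgeR BH-adjusted p = 0.000850) in PCC vs. WT and 0.95 (SE 0.27, edgeR BH-adjusted p = 0.0302) in HYP vs. WT, where 4 of the 10 fits without 1 sample lost the call (highest adjusted p 0.0734, without WT replicate 4). *Apc2* overlaps *RGD1359127* on the other strand by 46 bases, and the library kit does not mark strand, so reads from that stretch cannot be told apart. The casein kinase 1 genes *Csnk1g2* and *Csnk1g3*, which phosphorylate LRP6 at the membrane, differed. *Csnk1g3* was at 17.6 ± 5.04 CPM in WT, 33.5 ± 12.1 CPM in HYP and 34.6 ± 13.1 CPM in PCC, with a log2 fold change of 0.96 (SE 0.25, edgeR BH-adjusted p = 0.0131) in PCC vs. WT and 0.88 (SE 0.27, edgeR BH-adjusted p = 0.0429) in HYP vs. WT. *Csnk1g2* was at 184 ± 16.8, 135 ± 22.0 and 135 ± 27.8 CPM, and its log2 fold change was -0.50 (SE 0.14, edgeR BH-adjusted p = 0.0307) in HYP vs. WT and -0.48 (SE 0.18, edgeR BH-adjusted p = 0.0580) in PCC vs. WT. The HYP vs. WT calls of *Csnk1g3* and *Csnk1g2* were each lost in 8 of the 10 fits without 1 sample, with highest adjusted p of 0.166 and 0.0707. *Dvl1*, the Dishevelled gene that relays the signal from Frizzled, and *Nkd2* did not pass in PCC vs. HYP, at 0.60 (SE 0.22, edgeR BH-adjusted p = 0.127) and 0.76 (SE 0.27, edgeR BH-adjusted p = 0.116).

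In the nucleus, all 5 genes tested in PCC vs. WT were called, 3 higher (*Ctnnbip1*, *Bcl9* and *Tcf7l2*) and 2 lower (*Tle3* and *Tcf7l1*). Of all genes tested there, 85.2% were called, 46.7% higher and 38.5% lower. *Bcl9* (ENSRNOG00000017516, chromosome 2 from 199334664 to 199354793, minus strand), a coactivator that binds β-catenin, was at 23.4, 20.6, 21.3, 15.9 and 17.3 CPM in WT, 38.2, 30.2, 27.1, 32.9 and 31.0 CPM in HYP and 29.9, 48.5, 48.5, 49.99 and 44.6 CPM in PCC. WT lay below both MENX groups, and PCC replicate 1 within the range of HYP. This was a log2 fold change of 1.13 (SE 0.20, edgeR BH-adjusted p = 0.00142) in PCC vs. WT and 0.64 (SE 0.16, edgeR BH-adjusted p = 0.0158) in HYP vs. WT. *Ctnnbip1*, which blocks the binding of β-catenin to Tcf proteins, was at 6.49 ± 1.75 CPM (SD, n = 5) in WT, 9.53 ± 1.75 CPM in HYP and 17.9 ± 3.78 CPM in PCC. Its log2 fold change was 1.43 (SE 0.25, edgeR BH-adjusted p = 0.00156) in PCC vs. WT and 0.81 (SE 0.21, edgeR BH-adjusted p = 0.0350) in PCC vs. HYP, the latter lost in 7 of the 10 fits without 1 sample (highest adjusted p 0.0923, without HYP replicate 3).

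*Tle3* (ENSRNOG00000013013, chromosome 8 from 66296883 to 66342176, plus strand), a Groucho co-repressor that acts with Tcf proteins, was at 219.9, 275, 195, 154 and 142 CPM in WT, 104, 107, 109, 125 and 129 CPM in HYP and 67.0, 80.6, 80.3, 39.9 and 116 CPM in PCC. Both MENX groups lay below WT in every sample. edgeR gave a log2 fold change of -1.41 (SE 0.29, edgeR BH-adjusted p = 0.00376) in PCC vs. WT and -0.83 (SE 0.18, edgeR BH-adjusted p = 0.0101) in HYP vs. WT. With scaling to the summed listed counts neither value passed the threshold, and with the recovered library totals the HYP vs. WT value did not. The Tcf7 relatives moved apart. *Tcf7l2* was at 18.3 ± 3.76 CPM (SD, n = 5) in WT, 22.3 ± 4.00 CPM in HYP and 35.7 ± 10.6 CPM in PCC, with a log2 fold change of 0.93 (SE 0.23, edgeR BH-adjusted p = 0.00875) in PCC vs. WT. *Tcf7l1*, which acts mostly as a repressor, was at 18.5 ± 1.17, 14.1 ± 1.64 and 8.71 ± 4.08 CPM, with a log2 fold change of -1.12 (SE 0.28, edgeR BH-adjusted p = 0.01004).

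Of the planar cell polarity genes, 3 of 5 tested in PCC vs. WT were higher (*Vangl2*, *Daam2* and *Prickle2*) and *Daam1* was lower. There, 46.7% of all genes tested were called higher and 38.5% lower. *Vangl2* (ENSRNOG00000004889, chromosome 13 from 90380632 to 90405591, minus strand), a core membrane protein of this branch, was at 0.433, 0.453, 0.580, 0.563 and 0.142 CPM in WT, 1.20, 2.42, 0.903, 1.39 and 2.99 CPM in HYP and 1.18, 4.81, 3.51, 4.30 and 1.25 CPM in PCC. WT lay below both MENX groups, which overlapped each other. The fitted log2 fold change was 2.72 (SE 0.53, edgeR BH-adjusted p = 0.00257) in PCC vs. WT and 1.96 (SE 0.41, edgeR BH-adjusted p = 0.00817) in HYP vs. WT. *Prickle2* (ENSRNOG00000012364, chromosome 4 from 124238167 to 124338176, minus strand), its cytoplasmic partner, was at 13.0, 12.5, 10.3, 9.77 and 9.81 CPM in WT, 19.6, 19.7, 14.6, 15.0 and 14.4 CPM in HYP and 28.9, 24.8, 35.0, 47.4 and 31.8 CPM in PCC. The 3 groups did not overlap. The log2 fold change was 1.56 (SE 0.21, edgeR BH-adjusted p = 0.000424) in PCC vs. WT and 0.90 (SE 0.20, edgeR BH-adjusted p = 0.0205) in PCC vs. HYP, where the call was lost without HYP replicates 3, 4 or 5 (highest adjusted p 0.0698). Between HYP and WT it was 0.53 (SE 0.17, edgeR BH-adjusted p = 0.0554), which passed the threshold only without HYP replicate 3 among the fits without 1 sample (adjusted p 0.0414). *Prickle1* did not pass, at -0.49 (SE 0.23, edgeR BH-adjusted p = 0.144) in PCC vs. WT and -0.69 (SE 0.23, edgeR BH-adjusted p = 0.0640) in HYP vs. WT.

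The formins *Daam1* and *Daam2*, which link Dishevelled to actin, moved in opposite directions. *Daam1* (ENSRNOG00000004345, chromosome 6 from 94636222 to 94739026, plus strand) was at 61.7, 113, 99.8, 144 and 209 CPM in WT, 67.8, 66.6, 137, 101 and 91.7 CPM in HYP and 56.1, 31.3, 46.4, 33.6 and 49.1 CPM in PCC. PCC lay below WT and HYP in every sample. By edgeR the log2 fold change was -1.55 (SE 0.28, edgeR BH-adjusted p = 0.00165) in PCC vs. WT and -1.19 (SE 0.25, edgeR BH-adjusted p = 0.0176) in PCC vs. HYP, the latter lost without HYP replicate 4 (adjusted p 0.0511). *Daam2* (ENSRNOG00000053945, chromosome 9 from 13446896 to 13490669, plus strand) was at 8.32, 12.6, 7.44, 11.3 and 5.97 CPM in WT, 14.3, 24.0, 20.4, 17.1 and 19.5 CPM in HYP and 32.6, 38.3, 31.7, 57.6 and 25.5 CPM in PCC. The 3 groups did not overlap. In log2 terms the fold change was 1.98 (SE 0.29, edgeR BH-adjusted p = 0.000621) in PCC vs. WT, 1.01 (SE 0.23, edgeR BH-adjusted p = 0.0120) in HYP vs. WT and 0.85 (SE 0.22, edgeR BH-adjusted p = 0.0404) in PCC vs. HYP, comparisons that share samples. The PCC vs. HYP call was lost in 8 of the 10 fits without 1 sample (highest adjusted p 0.111, without HYP replicate 4).

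**Figure D4:**
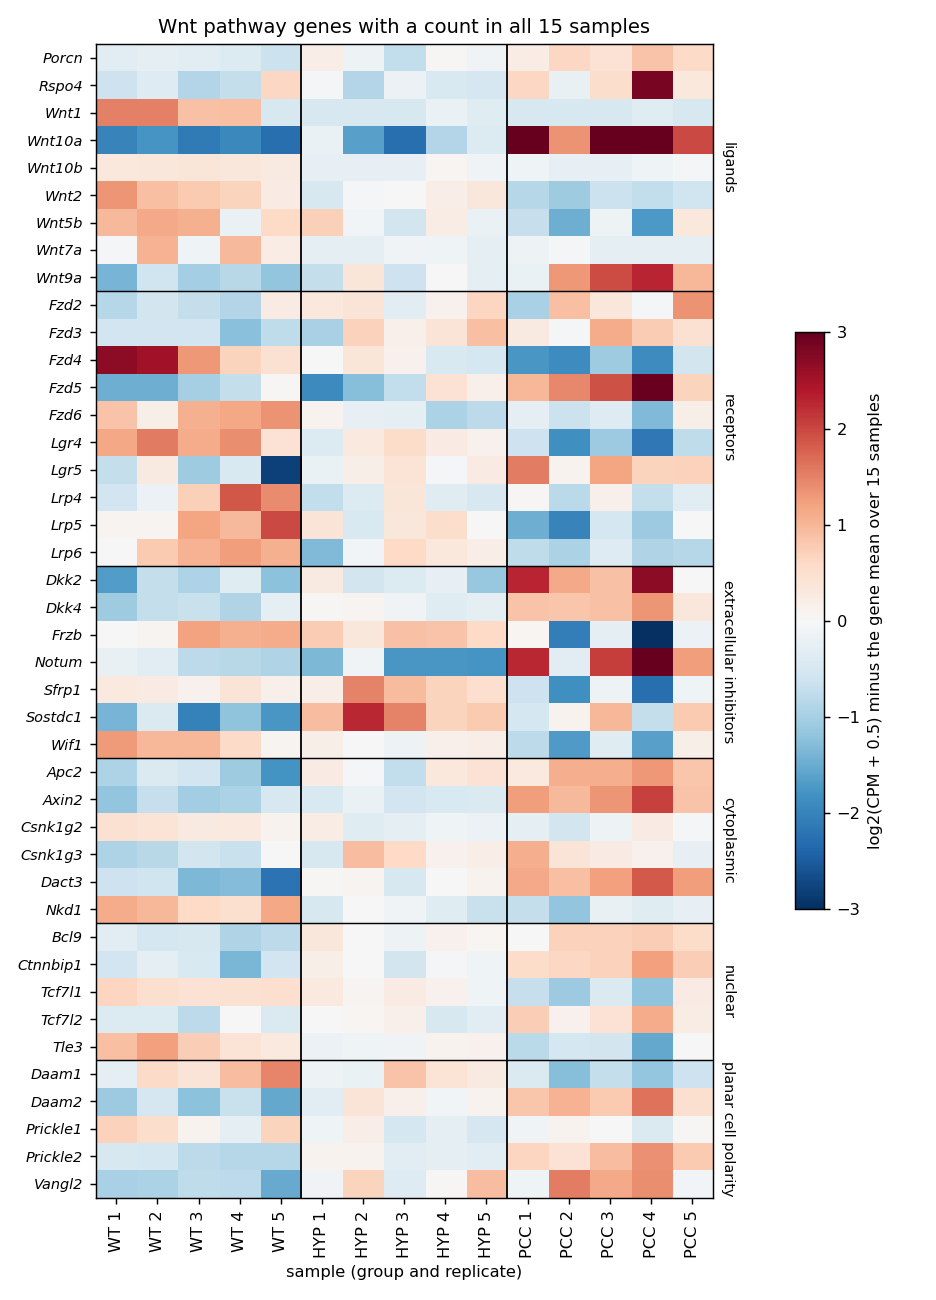
Heat map of log2(CPM + 0.5) minus the gene mean over 15 samples for the 42 Wnt pathway genes with a count table entry in all samples, with rows by role and 1 column per sample (color scale from -3 to 3, values beyond it shown at the end colors). *Wnt10a* and *Notum* turn red in PCC, with PCC replicate 4 at 58.9 and 73.0 CPM, while *Fzd4*, *Lgr4*, *Lrp6* and *Tle3* turn blue from WT to PCC.

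Within the PCC group, replicate 4 took the extreme value of many members. It was the highest of the 5 PCC samples for 17 of the 23 members called higher in PCC vs. WT, against 43.5% of the 3268 genes called higher, and for 11 of the 11 members called higher in PCC vs. HYP, against 67% of 687 genes. Among the 13 members called lower in PCC vs. WT, the lowest PCC sample was replicate 2 for 8 and replicate 4 for 5, against 26.6% and 47.2% of the 2694 genes called lower. These are also the PCC samples with the lowest cortex sums and the highest cell cycle sums (386 CPM in replicate 2 and 349 CPM in replicate 4). Without PCC replicate 4, 21 members were called higher and 14 lower in PCC vs. WT, and 7 higher and 6 lower in PCC vs. HYP. Without both samples, an alternative chosen after seeing the data, 22 were higher and 11 lower in PCC vs. WT, and 6 were higher and 4 lower in PCC vs. HYP. The calls of *Wnt5b* and *Wnt6* in PCC vs. WT, and those of *Wnt9a*, *Fzd4*, *Fzd5*, *Dkk2*, *Dkk4*, *Daam1* and *Daam2* in PCC vs. HYP, were lost without both samples.

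PCC replicates 2 and 4, with the lowest cortex sums, held the lowest PCC value of all 13 members called lower in PCC vs. WT. They also held it for the 5 members called lower in PCC vs. HYP (2 in replicate 2 and 3 in replicate 4). Of all 710 genes called lower there, 20.7% were lowest in replicate 2 and 64.2% in replicate 4, so the count of members was near the background. *Lgr4* was at 16.7 and 20.6 CPM in PCC replicates 4 and 2, and at 35.4 to 49.3 CPM in the other PCC samples, whose cortex sums were 10328 to 14512 CPM. *Frzb* was at 25.4 and 129 CPM in replicates 4 and 2, against 452 to 570.1 CPM in the others. *Lrp6* was lowest in the same samples with a narrower gap, at 54.3 and 52.7 CPM in replicates 4 and 2 and 56.8 to 78.8 CPM in the others. *Nkd1* was at 11.2 CPM in replicate 2, the lowest of the group, and at 20.1 CPM in replicate 4, within the 15.7 to 22.1 CPM of replicates 1, 3 and 5. *Axin2* was highest in replicate 4 (226 CPM) and at 107 CPM in replicate 2, within the 97.6 to 136 CPM of the others. The part of cortex tissue in these values was not tested.

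**Figure D5:**
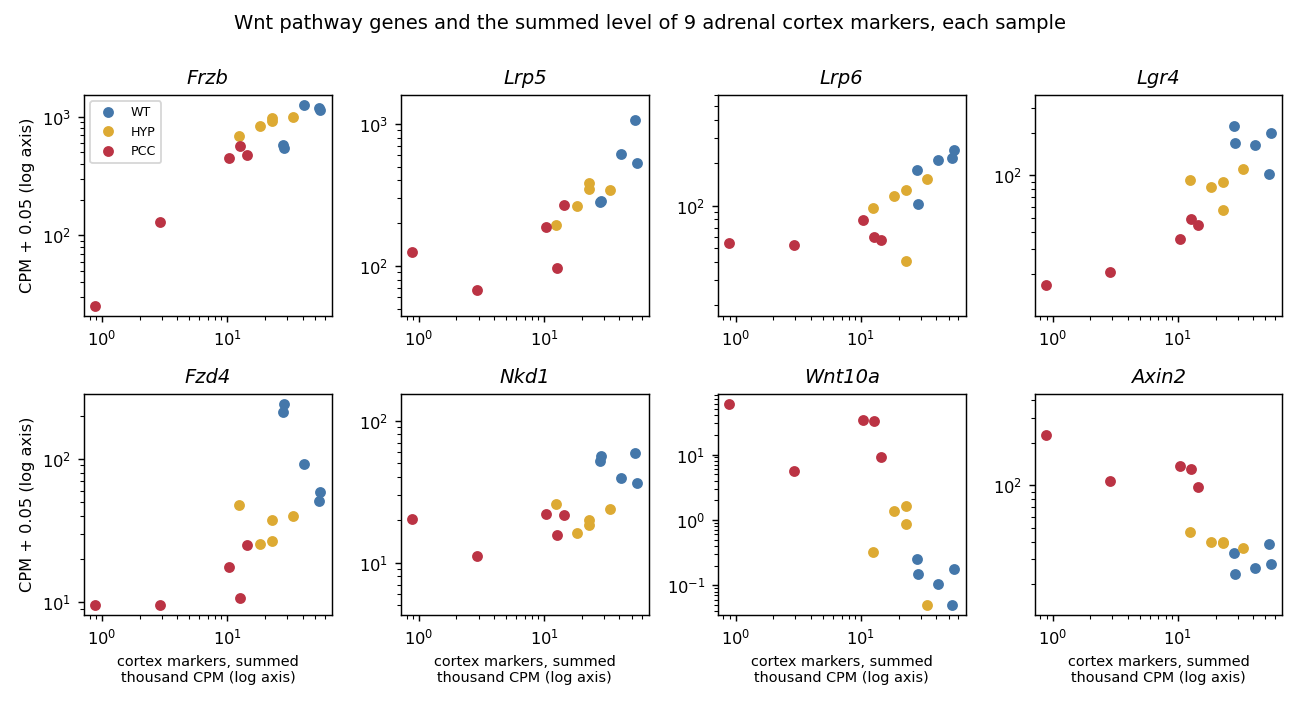
CPM plus 0.05 of 8 Wnt pathway genes (log axis) against the summed level of 9 adrenal cortex markers in units of 1000 CPM (log axis), with 1 point per sample colored by group. *Frzb* and *Lgr4* are lowest in the 2 PCC samples with the lowest cortex sums (888 and 2899 CPM), whereas *Axin2* and *Wnt10a* are high in the PCC samples at cortex sums from 888 to 14512 CPM.

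Genes of the pathway outside the rule were read from a list of 89 further components and targets, of which 37 were in a table. In PCC vs. WT, 33 were tested, with 19 higher and 8 lower (81.8% called, against 85.2% of all genes tested). HYP vs. WT had 11 of 21 called higher and 6 lower (81.0%, against 72.1%), and in PCC vs. HYP, 4 of 15 were higher and 3 lower (46.7%, against 44.4%). *Celsr2* and *Celsr3*, cadherins of the planar cell polarity branch, were both higher in PCC vs. WT. *Celsr3* went from 78.3 ± 38.4 CPM (SD, n = 5) in WT to 213 ± 46.7 CPM in HYP and 342 ± 50.3 CPM in PCC (log2 fold change 2.07, SE 0.39, edgeR BH-adjusted p = 0.00236). *Cxxc4*, which binds Dishevelled and blocks the canonical branch, went from 1.72 ± 0.541 CPM to 16.8 ± 8.31 CPM (log2 fold change 3.24, SE 0.41, edgeR BH-adjusted p = 0.000287). *Prkca*, a protein kinase C of the calcium branch, went from 12.2 ± 3.94 CPM to 124 ± 32.6 CPM (log2 fold change 3.29, SE 0.32, edgeR BH-adjusted p = 9.87e-05). Of the same list, *Camk2a* (log2 fold change 3.61, SE 0.82, edgeR BH-adjusted p = 0.00581), *Ascl2* (log2 fold change 1.62, SE 0.34, edgeR BH-adjusted p = 0.00382) and *Cd44* (log2 fold change 1.46, SE 0.45, edgeR BH-adjusted p = 0.0275) were higher as well. Among the 8 genes called lower, *Ccnd3*, a D-type cyclin, went from 308 ± 54.8 CPM to 103 ± 44.1 CPM (log2 fold change -1.60, SE 0.26, edgeR BH-adjusted p = 0.00109), and *Jun*, the AP-1 subunit downstream of the polarity branch, from 1229 ± 264 CPM to 249.6 ± 140.4 CPM (log2 fold change -2.34, SE 0.37, edgeR BH-adjusted p = 0.000880). *Ppard*, also among them, went from 311 ± 56.0 CPM to 78.8 ± 30.3 CPM (log2 fold change -2.01, SE 0.26, edgeR BH-adjusted p = 0.000323). It was called lower in HYP vs. WT (-1.06) and in PCC vs. HYP (-1.08) too.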

How the data were processed

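RNA-seq libraries were made by the authors from poly-T selected mRNA of 15 macrodissected adrenal medullas (RIN over 6.5) with a NEBNext Ultra kit, which does not mark strand, and sequenced as paired ends. Reads were aligned to rat genome Rn06 with HISAT2 (2.0.5) and counted with featureCounts (1.5.0-p3), versions per the submitters' processing notes. The 3 deposited tables, 1 per comparison, list a gene only where the DESeq2 test of the authors gave an adjusted p under 0.05. They give raw counts, a normalized signal (counts that the authors divided by size factors), FPKM (reads scaled by gene length and library size by the authors), gene length, and the authors' fold changes and p-values. The authors' fold changes were not used, and the deposited p-values served only to recover how many genes had been tested.

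Counts were tested with edgeR 4.0.16 (R 4.3.3; quasi-likelihood, TMM factors over the listed genes, filterByExpr) on the 10 samples of each comparison. The low-count filter removed 682, 298 and 212 genes in the 3 comparisons (PCC vs. WT first, PCC vs. HYP last), and p-values were adjusted over the 18790, 18057 and 17454 genes that the authors' p-values give as tested, at most. CPM were set on 1 TMM scale over 5492 genes with counts in all samples. Library totals recovered from counts (at least 20) and FPKM set only the common level of that scale, not the size used for each sample. Counts set the precision of a value, and intervals and ratios of reads cover counting error only. Alternatives were DESeq2 1.42.0, other scalings, no filter, a replicate block, adjustment over the listed genes, a fit of all 15 samples and each sample left out. On simulated counts for PCC vs. WT with 7167 genes, 54% of genes changed 2-fold and 100% of those changed 4-fold were recovered. Whether these shares hold for the measured counts, with p-values adjusted over up to 18790 genes, was not tested. Recovery of members at a few reads was not tested either.

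Groups and replicate numbers came from the labels. The members and gene lists were chosen with earlier results of these data known. Members named with each sample were the 6 largest called changes per direction and comparison (mean of at least 1 CPM, groups not overlapping), the feedback targets and the listed ligands and R-spondins. The other members are given by mean and SD or by fold change, and the other pathway genes quoted were chosen after their values were seen. Promoters were from RefSeq (GRCr8).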

Additional observations from a re-analysis of the deposited data

Results flagged for a closer look

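In 9 of 98 groups of 5 samples tested (Dixon's test, critical value 0.71), 1 sample of a named member stood apart from the other 4, and chance gives this in about 5% of groups. *Rspo4* was at 0.925 CPM in WT replicate 5 (nearest WT sample 0.201) and at 6.20 CPM in PCC replicate 4 (nearest PCC sample 0.911). *Wnt5a* was at 142 CPM in WT replicate 5 (nearest 56.7), which was also the WT sample with the lowest chromaffin sum. *Lrp6* was at 78.8 CPM in PCC replicate 3 (nearest 60.1). *Notum* was at 2.47 CPM in HYP replicate 2 (nearest 0.761) and at 73.0 CPM in PCC replicate 4 (nearest 15.0). *Dact3* was at 5.93 CPM in HYP replicate 3 (nearest 8.54). *Bcl9* was at 29.9 CPM in PCC replicate 1 (nearest 44.6). *Lef1* was at 102 CPM in HYP replicate 1 (nearest 39.0); without this sample its adjusted p in PCC vs. HYP was 0.00720 by edgeR.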

How the results depend on the processing

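Counts of called members depended on the processing, and the cause was not tested except where a setting itself changes the number of genes or samples. Listing itself required a call by the authors' DESeq2 test of the same counts. High counts with DESeq2 or with adjustment over the listed genes were therefore largely fixed in advance and are no support. In PCC vs. WT, 22 members were lower with DESeq2 and 8 with scaling to the summed listed counts, against 13. In HYP vs. WT, 14 were higher with DESeq2 and 5 with the replicate block, against 8, and 16 were lower with DESeq2, 3 with either total and 16 with adjustment over the listed genes alone, against 9. In PCC vs. HYP, 6 were higher with the replicate block, 18 with adjustment over the listed genes and 6 without PCC replicates 2 and 4, the alternative added after seeing the data, against 11. There, 11 were lower with DESeq2, 3 with the summed listed counts, 9 with adjustment over the listed genes, 9 in a fit of all 15 samples and 0 with the replicate block, against 5. Beside that 0, edgeR with the block gave 9 lower members at an unadjusted p under 0.05, and DESeq2 called 11.

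Leaving out 1 sample gave 20 to 25 members higher and 11 to 15 lower in PCC vs. WT, 4 to 10 higher and 5 to 10 lower in HYP vs. WT, and 3 to 11 higher and 2 to 7 lower in PCC vs. HYP. Over the fold changes of single named members that passed the low-count filter, none changed sign. Of these, 42 lost and 46 gained a call under alternatives that kept all samples or left out PCC replicates 2 and 4, while 500 kept their side of the threshold, and 83 lost and 16 gained a call without 1 sample, while 581 kept it. Samples with the same replicate number deviated from their group means with correlations of -0.17 to 0.27, and not every sample correlated best with its own number, so the numbers were not taken as pairs. The block gave 19 higher and 14 lower members in PCC vs. WT and 6 lower in HYP vs. WT. Members at a few reads, such as *Wnt1*, *Wnt7a* and *Wnt10b*, are limited by depth.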
